A study of Mus musculus with 3 samples.

Results

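The 33 genes described here carry out or mark the cell division cycle, and they were followed across T cells, germinal centre B cells, dendritic cells and epithelium of the mouse duodenum. They were picked by symbol from the 32285 genes of the count matrices, with earlier results of these data known, and all 33 were found. The 11 S genes serve DNA replication: Mcm2 to Mcm7, Pcna, Tyms, Rrm1, Rrm2 and Pclaf. The 21 G2/M genes serve chromosome condensation, the spindle and its checkpoint, and mitotic exit: Mki67, Top2a, Birc5, Ccnb1, Ccnb2, Ccna2, Ube2c, Cdk1, Cenpf, Cenpe, Cenpa, Aurka, Aurkb, Bub1, Bub1b, Plk1, Kif11, Kif20a, Nusap1, Hmmr and Tpx2. Stmn1, which encodes the microtubule-destabilising protein stathmin, was kept apart from both groups.

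Duodenal immune cells of C57B6/J mice, male by the title of the series, were profiled by 10x 3′ v3 single-cell RNA sequencing at day 30 after injection into the duodenal wall. Saline was injected in 2 libraries, saline 1 of batch 1 and saline 2 of batch 2, and preformed fibrils of recombinant mouse alpha-synuclein (PFF) in 1 library, PFF 1 of batch 1. All groups carry the same genotype label, and the labels give neither the number of mice in a library nor what the batches are. Every library combines cells sorted for CD45, the surface protein of blood-derived cells, with cells enriched on CD11b beads, so the share of each cell type reflects these steps as well as the tissue. The labels call the samples immune cells, but 1441 of the 33284 cells kept carried epithelial markers without Ptprc, the gene for CD45.

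In a dividing cell the MCM helicase, the sliding clamp PCNA and the nucleotide-making enzymes act while DNA is copied, and cyclins, kinases and motor proteins act later to condense and part the chromosomes. S genes are switched on by E2F factors before replication, and many G2/M genes are held off in resting cells and switched on later through CCAAT and CHR promoter elements bound by NF-Y and by the DREAM, MYB and FOXM1 complexes. In the gut, germinal centres of lymphoid follicles hold B cells in rapid division, and epithelial division is kept to the crypts, below non-dividing villus cells.

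Both saline files held 3 wells with identical cells in each (1509, 3648 and 8732 cells), so these were counted once, as a separate entry called the shared saline wells. Comparisons between gates counted this entry as a further library. The saline library it belongs to is not known, so it may not be independent of saline 1 or saline 2. Of 40350 barcode sequences 255 were met in more than 1 well. Depth per well ran from 7553070 to 142955760 UMIs, the unique molecular identifiers that count captured RNA molecules. Cells were assigned to gates by raw UMIs of marker genes, none of them a member: 17892 T cells, 225 germinal centre B cells, 424 other B cells, 87 dendritic cells, 202 macrophages and 1441 epithelial cells, with 12750 cells in no gate. A further 263 B cells with 1 germinal centre marker were set apart from both B cell gates and entered no test. T cells were required to show at most 1 epithelial marker, at most 1 C1q gene and no B cell marker, and the gate kept 5633 of 10327 cells with 2 T cell markers in PFF 1, 4392 of 5037 in saline 1, 1456 of 3262 in saline 2 and 6411 of 8809 in the shared wells. Of these cells with T cell markers 4478, 594, 1791 and 2126 had 2 epithelial markers. Epcam and Cdh1 were found in 26.8% to 71.8% and 39.8% to 68.0% of such cells, but Krt8 in 0.675% to 9.66%, so an added setting counted only the other epithelial markers. Genes that helped define the gates were frequent in them by that choice, so their shares are no check of identity. Cd3e was found in 98.9% of the T gate and Bcl6 in 89.3% of the germinal centre gate. Flt3 was found in 82.8% of the dendritic gate and Vil1 in 94.9% of the epithelial gate. The dendritic gate also had Epcam in 58.6% of its cells, and the germinal centre gate the plasma cell gene Jchain in 76.0%. Levels are given as CPM, the UMIs of a gene scaled to the total UMIs of a gate in a library. Each 3′ UMI stands for 1 captured molecule whatever the length of the transcript.

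Germinal centre B cells carried the highest summed level of both groups of genes. Their G2/M genes summed to 7378 CPM in saline 1 (13 cells), 3079 CPM in saline 2 (9 cells), 3748 CPM in the shared wells (126 cells) and 2392 CPM in PFF 1 (77 cells). In T cells the same sum was 235, 299, 378 and 334 CPM, so the ranges of these gates were far apart. The S genes summed to 1644, 2330, 2662 and 1578 CPM in germinal centre B cells, and to 356, 325, 373 and 358 CPM in T cells. Across these libraries T cells therefore varied little in S genes and somewhat more in G2/M genes. B cells without any germinal centre marker had 74.3 to 176 CPM of S genes. Their G2/M sum was 185.8 CPM in saline 1, where 14 of the 15 UMIs lay in 1 cell, and 23.9 to 52.3 CPM elsewhere. The B cells with 1 germinal centre marker had a G2/M sum of 269 CPM in saline 1 (6 cells) and 51.8 CPM in saline 2 (30 cells). In the shared wells it was 71.3 CPM (65 cells) and in PFF 1 37.5 CPM (162 cells). Their S sum was 108, 134, 143 and 173 CPM in the same order. A higher sum can come from more cells in cycle or from more RNA in each of them, and the sums cannot tell these apart.

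**Figure D1:**
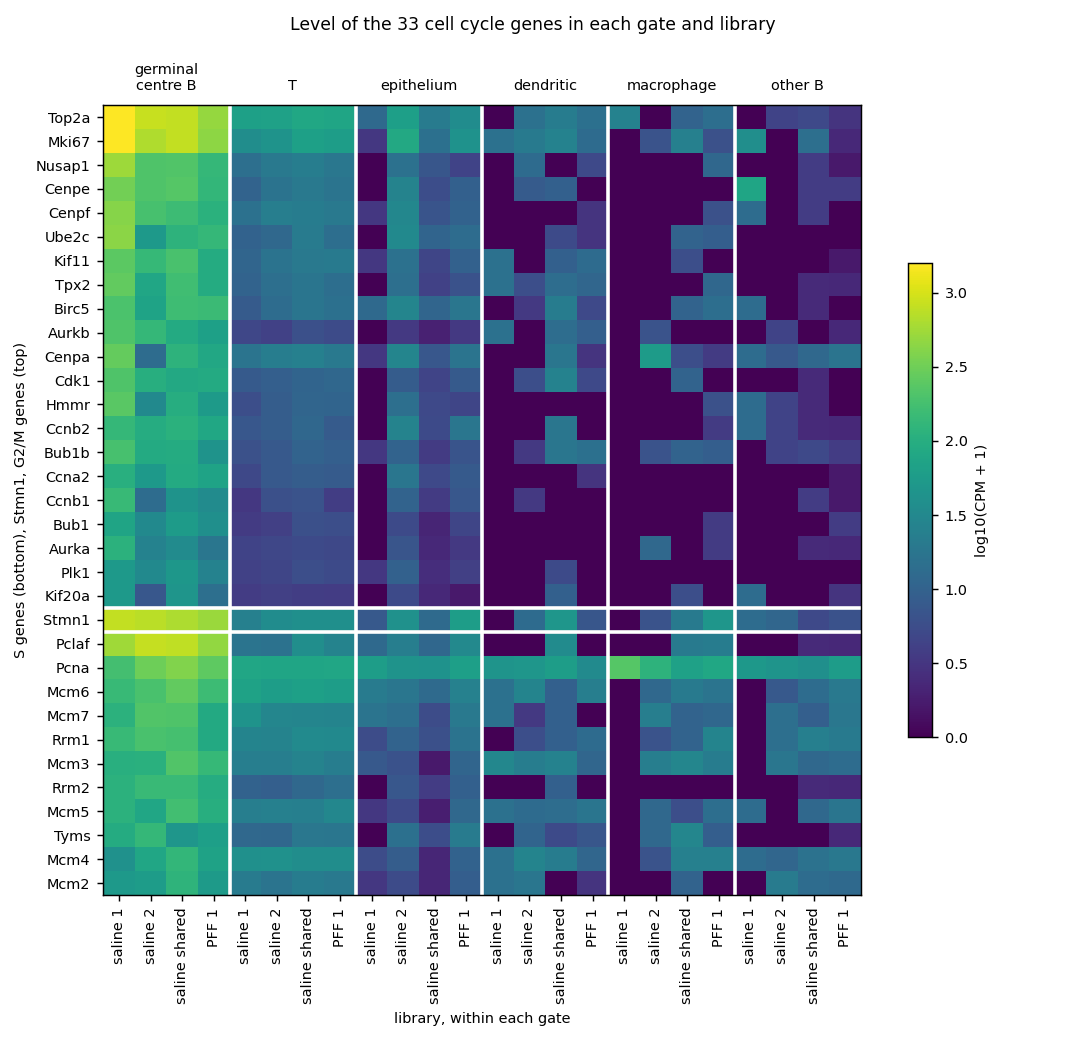
Level of each of the 33 genes in 6 gates, with the libraries as columns within a gate, coloured by log10 of CPM plus 1, G2/M genes at the top, Stmn1 between the white lines and S genes at the bottom. Germinal centre B cells stand out in most rows, but not in all for saline 2 (9 cells). There Cenpa stood at 12.7 CPM, against 27.4 CPM in epithelium and 55.9 CPM in macrophages. T cells are nearly even across libraries for Pcna and Mcm6 but less so for Pclaf. Many genes have no UMI (darkest cells) in dendritic cells, macrophages and other B cells, where Pcna is seen in every library.

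The most abundant members of the germinal centre gate were Top2a and Mki67. Top2a, the topoisomerase that untangles sister chromosomes, stood at 1593, 857, 811 and 492 CPM in saline 1, saline 2, the shared wells and PFF 1. Mki67, which coats mitotic chromosomes and gives the Ki-67 antigen, stood at 1572, 660, 810 and 448 CPM. PFF 1 was lowest and saline 1 highest for both. Nusap1, a spindle protein, stood at 545, 210, 213 and 134 CPM. Among the S genes Pclaf, a PCNA partner, led with 555, 825, 788 and 478 CPM. It was followed by Pcna with 175, 311, 390 and 253 CPM and by Mcm6, a helicase subunit, with 144, 190, 271 and 154 CPM. These S genes were highest in saline 2 or the shared wells, unlike the G2/M genes. Stmn1 stood at 802, 743, 643 and 521 CPM.

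The promoters of these 6 leading genes are printed because they show how the members share sequence that the choice by symbol did not use. Each is the 250 bases before the RefSeq start of the gene on build GRCm38.p6, read 5′ to 3′ on the strand of the gene, and capitals mark 2 motifs that do not overlap each other, each searched on both strands. One is CCAAT, the NF-Y box, which reads ATTGG where it lies on the opposite strand. The other is the CHR core TTTGAA, whose opposite strand reads TTCAAA. The Pclaf window is chr9:65890073-65890322 (plus strand), the Pcna window chr2:132253181-132253430 (minus), the Mcm6 window chr1:128359706-128359955 (minus), the Top2a window chr11:99024190-99024439 (minus), the Mki67 window chr7:135716380-135716629 (minus) and the Nusap1 window chr2:119618048-119618297 (plus).
Pclaf: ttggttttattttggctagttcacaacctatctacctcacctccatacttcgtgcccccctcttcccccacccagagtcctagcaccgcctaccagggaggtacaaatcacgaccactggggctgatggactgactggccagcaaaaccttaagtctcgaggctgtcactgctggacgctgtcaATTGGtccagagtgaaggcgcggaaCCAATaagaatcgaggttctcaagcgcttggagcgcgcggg
Pcna: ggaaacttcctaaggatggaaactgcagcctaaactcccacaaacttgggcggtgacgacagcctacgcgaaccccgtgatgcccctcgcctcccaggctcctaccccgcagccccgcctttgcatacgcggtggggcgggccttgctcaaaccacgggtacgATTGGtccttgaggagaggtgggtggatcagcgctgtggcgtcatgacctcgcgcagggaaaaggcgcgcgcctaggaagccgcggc
Mcm6: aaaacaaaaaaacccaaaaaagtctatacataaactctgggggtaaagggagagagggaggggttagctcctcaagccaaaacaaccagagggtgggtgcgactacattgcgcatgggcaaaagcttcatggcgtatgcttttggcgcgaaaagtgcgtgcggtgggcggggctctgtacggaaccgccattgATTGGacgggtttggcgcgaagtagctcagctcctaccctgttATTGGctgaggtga
Top2a: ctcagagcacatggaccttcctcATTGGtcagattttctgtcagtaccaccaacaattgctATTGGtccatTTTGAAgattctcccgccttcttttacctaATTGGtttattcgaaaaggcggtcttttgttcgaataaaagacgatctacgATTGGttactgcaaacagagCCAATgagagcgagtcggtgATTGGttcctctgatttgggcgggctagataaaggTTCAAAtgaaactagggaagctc
Mki67: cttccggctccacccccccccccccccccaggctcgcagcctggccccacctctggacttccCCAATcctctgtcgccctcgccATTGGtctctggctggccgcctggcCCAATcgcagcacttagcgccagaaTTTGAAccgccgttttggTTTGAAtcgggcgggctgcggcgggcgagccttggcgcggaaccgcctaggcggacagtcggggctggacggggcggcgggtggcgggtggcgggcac
Nusap1: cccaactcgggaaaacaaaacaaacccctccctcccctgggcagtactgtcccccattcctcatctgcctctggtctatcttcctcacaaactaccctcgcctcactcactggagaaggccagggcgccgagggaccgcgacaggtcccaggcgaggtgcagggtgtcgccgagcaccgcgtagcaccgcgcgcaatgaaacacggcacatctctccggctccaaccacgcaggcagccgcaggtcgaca

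The Top2a window held 6 CCAAT matches and 2 TTTGAA matches, the Mki67 window 3 and 2, and the Nusap1 window none. Pclaf and Mcm6 had 2 CCAAT matches each and Pcna 1, with no TTTGAA. Windows were matched for 10 of the 11 S genes and 17 of the 21 G2/M genes. The windows of Kif20a, Mcm4, Tpx2, Ccna2, Aurkb and Stmn1 were not used here. CCAAT on either strand was found in 9 of 10 S genes and 15 of 17 G2/M genes, against 37.5% of 27025 genes. TTTGAA on either strand was found in 1 of 10 S genes (Mcm2) and 6 of 17 G2/M genes (Mki67, Top2a, Ccnb2, Ube2c, Cdk1 and Kif11), against 18.3% of genes. A match is only a match of letters.

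In T cells the leading G2/M genes were Top2a, Mki67 and Cenpa, and the leading S genes Pcna, Mcm6 and Mcm4. Top2a stood at 64.4, 66.8, 80.4 and 75.8 CPM in saline 1, saline 2, the shared wells and PFF 1, and Cenpa at 15.8, 21.6, 23.6 and 18.8 CPM. Pcna, the sliding clamp, stood at 77.3, 74.3, 75.6 and 78.2 CPM and Mcm6 at 67.8, 59.8, 64.4 and 58.7 CPM. Pcna and Mcm6 were thus nearly level across libraries, while Pclaf differed more, with 16.2, 15.3, 36.9 and 26.0 CPM. Stmn1 stood at 24.1, 35.5, 38.7 and 38.0 CPM.

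In the epithelium as a whole Mki67 stood at 2.27, 85.5, 14.1 and 41.6 CPM, Top2a at 11.3, 63.9, 20.4 and 34.8 CPM and Birc5 at 11.3, 27.4, 10.1 and 17.2 CPM. Saline 2 was highest for all of these. Pcna led the S genes there with 58.9, 43.0, 41.6 and 62.2 CPM, and Stmn1 stood at 6.80, 41.0, 11.8 and 59.8 CPM. In macrophages Pcna was the most abundant member in each of the 4 libraries, while Mki67 lay at 0 to 23.9 CPM and Top2a at 0 to 25.4 CPM. In other B cells Mki67 lay at 0 to 37.2 CPM and Top2a at 0 to 4.13 CPM, with Pcna at 38.5 to 57.4 CPM.

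All 32 members that could be tested were higher in germinal centre B cells than in other B cells. The test was edgeR's quasi-likelihood test on summed UMIs over 6 gates with the library as a block, with Benjamini-Hochberg adjustment over 10547 genes, of which 8.83% were called higher. Kif20a, a kinesin of cytokinesis, did not pass the filter on low counts. Plk1 stood at 51.4, 48.5 and 24.9 CPM in the germinal centre cells tested, at 0 CPM in other B cells and at most 8.74 CPM in epithelium. Low-count members like it passed the filter largely through the germinal centre cells, so only a higher call was open to them. The median log2 difference was 3.42 for the 11 S genes and 6.93 for the 20 G2/M genes (6.55 with genes at 0 set to their bound), against -0.07 for all genes. Of the 33 members, 33 were higher in each of the 3 libraries with 10 or more cells in both gates, with no overlap between gates. The same held for 19.6% of the 11343 genes with at least 10 UMIs over these libraries, the set over which all shares of this kind are given.

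The largest differences rested on near absence from the other B cells. Ube2c, which tags mitotic cyclins for destruction, had 374 UMIs in germinal centre B cells and 0 in other B cells, so it was at least 116-fold higher by a floor of 3 UMIs over the group. Plk1, a mitotic kinase, had 106 UMIs against 0 and was at least 32.97-fold higher. Kif11, the motor that separates spindle poles, had 414 UMIs against 1, a ratio of 386 with a 95% counting interval of 69.0 to 15290. Among S genes, Pclaf had 1786 UMIs against 3, a ratio of 556 (190 to 2696). Rrm2, the regulated subunit of ribonucleotide reductase, had a ratio of 105 (35.8 to 514) and Tyms, which makes thymidylate, of 71.8 (19.6 to 599). These intervals, like all intervals and floors here, cover counting error only. Germinal centre cells were deeper than other B cells (medians of 6708 to 18985 against 2575 to 6503 UMIs), and the part of depth in the differences was not tested beyond the scaling to total UMIs.

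Other division genes, from lists chosen with earlier results of these data known, moved the same way between these B cells. In edgeR's test 31 of 32 other mitosis genes, 20 of 22 other replication genes and 6 of 8 E2F, MYB and FOXM1 regulators were higher and none lower. Cdca3, Spc24 and Kif4 of mitosis had no UMI in other B cells and were higher by bounds of 95.8-fold, 73.4-fold and 67.2-fold (at least), and the repressor E2f8 by at least 48.5-fold. Of all genes 7.03% were called lower here, and of the lymphocyte quiescence genes 4 of 8, among them Klf2 (log2 -2.65 ± 0.76 SE) and Foxp1 (-2.08 ± 0.33), with adjusted p of 0.0177 and 7.926e-05. Of 7 cell cycle inhibitors and pocket proteins 2 were lower and 2 higher: Cdkn1b, which encodes p27, was lower by 2.96 ± 0.46 on the log2 scale and Rb1 lower by 2.00 ± 0.35, but Cdkn2c, which encodes p18, was higher by 2.26 ± 0.52 and the pocket protein gene Rbl1 by 1.63 ± 0.33 (adjusted p = 6.535e-05, 0.000225, 0.00313 and 0.00104 by edgeR with Benjamini-Hochberg adjustment). Of the G1 genes only Ccne2 and Cdk4 of 7 were higher. Plasma cell markers were lower in 3 of 4 cases. They summed to 1254, 5625, 1258 and 2277 CPM in germinal centre B cells of saline 1, saline 2, the shared wells and PFF 1, and to 9007, 10920, 18770 and 1158 CPM in other B cells. Other B cells were thus rich in plasma cell RNA in the saline entries but not in PFF 1, and its part in the differences of the members was not tested.

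Against T cells all 32 tested members were again higher in germinal centre B cells, where 18.7% of 10547 genes were called higher. The limit given above for low-count members holds here too. The median log2 difference was 2.12 for S genes and 3.76 for G2/M genes, against -0.23 for all genes. Pclaf had the largest difference of the S genes, 4.61 ± 0.42 (SE), and Aurkb, the kinase that corrects spindle attachment, that of the G2/M genes, 4.59 ± 0.45, with adjusted p of 3.051e-09 and 1.172e-08 by edgeR with Benjamini-Hochberg adjustment. Rrm2, Mcm3, Mki67 and Ccnb1 followed with 3.45 ± 0.40, 2.83 ± 0.43, 4.201 ± 0.54 and 4.06 ± 0.55. Of the other lists 30 of 32 mitosis genes, 19 of 22 replication genes and 6 of 8 regulators were higher, 1 mitosis gene was lower (22.7% of all genes were), and the cyclin D2 gene Ccnd2 was lower by 4.60 ± 0.51 on the log2 scale while Ccne2 was higher by 3.11 ± 0.47.

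The share of cells in cycle was read from cells thinned to 2000 UMIs with at least 2 genes of a group, leaving out shallower cells. In germinal centre B cells 61.5% (8 of 13), 22.2% (2 of 9), 52.4% (66 of 126) and 24.7% (19 of 77) had 2 G2/M genes in saline 1, saline 2, the shared wells and PFF 1. The exact 95% binomial interval of PFF 1, 15.6% to 35.8%, lay below that of the shared wells, 43.3% to 61.3%, but overlapped those of saline 1 (31.6% to 86.1%) and saline 2 (2.81% to 60.01%). These intervals treat cells as independent draws within a library and do not measure the spread between libraries or between PFF and saline. The third shared well gave 120 of the 126 cells. In T cells the share was 1.76% of 3970 cells, 1.70% of 1351, 3.18% of 6248 and 2.48% of 5555. Unthinned, the T cell shares were 2.85%, 7.01%, 7.92% and 7.86%. Macrophages had 1 such cell of 48 in PFF 1 and 0 of 4, 0 of 19 and 0 of 27 in saline 1, saline 2 and the shared wells, which by a limit of 3 cells allows shares of up to 75.0%, 15.8% and 11.1%, at median depths of 1328.5 to 2488 UMIs against 3160.5 to 9014 UMIs in T cells before thinning. The T cell shares lie within what these few macrophages allow.

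S genes gave another picture in T cells. At least 2 S genes were seen in 9.77%, 8.36%, 9.25% and 9.96% of thinned T cells, above the G2/M share in each library. Most of these cells lacked 2 G2/M genes: the S-only share was 8.72%, 7.55%, 7.62% and 8.50%. In germinal centre B cells both groups mostly met in the same cells, as 57 of 126 cells of the shared wells had both, 25 S only and 9 G2/M only. Macrophages had 2 S genes in 0 of 4, 0 of 19, 1 of 27 and 3 of 48 cells of saline 1, saline 2, the shared wells and PFF 1. Other B cells had them in 0 of 19, 2 of 36, 5 of 135 and 7 of 206 cells, or 0%, 5.56%, 3.70% and 3.40%, below the T cell share of the same library in each case. The exact 95% interval of the T cell share lay above that of other B cells in the shared wells (8.54% to 10.00% against 1.21% to 8.43%) and in PFF 1 (9.18% to 10.8% against 1.38% to 6.88%), and overlapped it in saline 1 and saline 2. Here too the intervals treat cells as independent draws within a library.

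**Figure D2:**
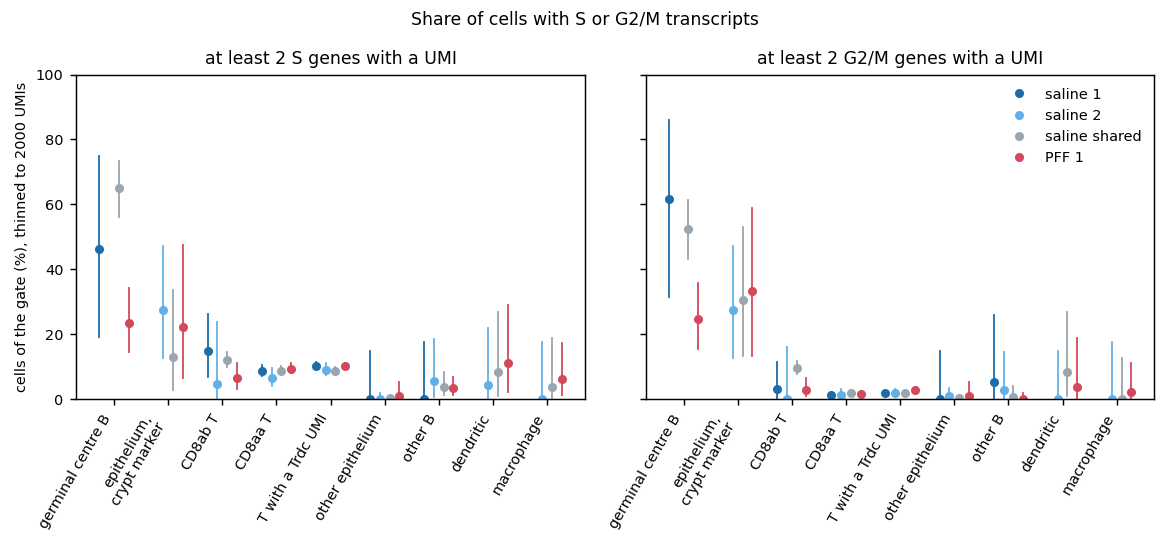
Share of cells with at least 2 S genes (left) and at least 2 G2/M genes (right) after thinning to 2000 UMIs, in percent, for each gate or T cell subset and library with at least 10 such cells (points), with exact 95% binomial intervals (lines). For S genes germinal centre B cells lie at 46.2%, 65.1% and 23.4% in saline 1, the shared wells and PFF 1, and for G2/M genes crypt-marker epithelium lies between 27.6% and 33.3% while CD8aa T cells lie between 1.29% and 1.78%.

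Confinement was measured against cells with mitotic transcripts, not against all dividing cells. The choice by G2/M genes favours G2/M genes, and S phase cells without them counted as outside. The measure was the share of a gene's UMIs lying in cells with at least 2 other G2/M genes. These cells made up 2.85% to 7.92% of T cells, yet held a median of 89.0% of the UMIs of a G2/M gene. Hmmr, a spindle-associated hyaluronan receptor, was the most confined with 98.7%, and Bub1, Birc5, Cenpf and Ccna2 followed with 98.0%, 96.0%, 95.9% and 95.7%. Cenpa, the histone H3 variant of centromeres, was the least confined with 40.6% (31.6% to 55.3% over libraries). Bub1b and Aurka had 68.7% and 71.4%, Top2a 77.9% and Mki67 82.5%. S genes had a median of 30.0% in T cells and were uneven. The helicase genes Mcm2 to Mcm7 lay between 18.7% (Mcm4) and 36.8% (Mcm3), and Pcna, Rrm1 and Tyms at 24.5%, 30.0% and 34.2%. Pclaf and Rrm2 were as confined as the G2/M genes, with 93.6% (89.7% to 96.5%) and 81.9% (75.9% to 85.9%). Stmn1 had 93.9%. In germinal centre B cells the medians were 99.8% for G2/M and 94.0% for S genes, and in epithelium 92.8% and 71.1%.

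Cells with G2/M genes were deeper: in T cells their median was 5040 to 13403.5 UMIs, against 3076.5 to 8399.5 UMIs for T cells without any. The deepest 5% of T cells held 61.9% to 78.4% of the G2/M UMIs but 10.9% to 11.8% of all UMIs, and 23.5% to 33.5% of the S UMIs. With cells thinned to 2000 UMIs the median confinement in T cells was 73.0% for G2/M and 13.1% for S genes, and without the deepest 5% it was 57.2% and 14.2%. The most confined S gene then had 83.1% and 79.4%. No doublet caller was run, and the part of doublets among the deepest barcodes was not tested.

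**Figure D3:**
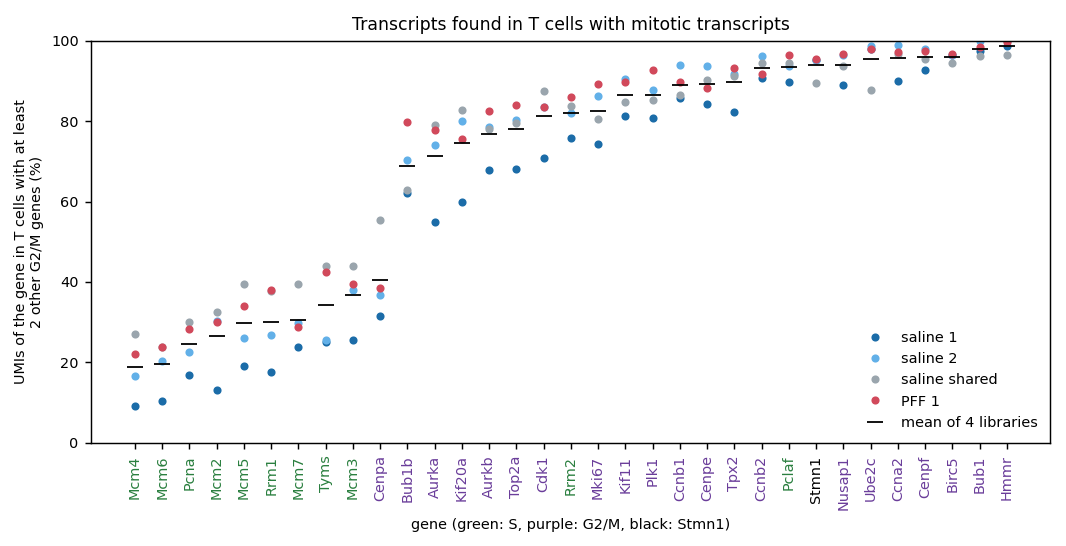
Share of the UMIs of each gene, in percent, that lies in T cells with at least 2 other G2/M genes, per library (points) and as the mean of the 4 libraries (dashes), genes ordered by the mean with S genes in green, G2/M genes in purple and Stmn1 in black. Pclaf and Rrm2 lie among the G2/M genes, Cenpa lies beside the S genes at 40.6%, and saline 1, the shallowest library, is lowest for most genes.

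Genes outside the 33 were compared between T cells with at least 2 G2/M genes and T cells with none, as levels and with no test, since the members chose the cells. Of other mitosis genes 32 of 33, of other replication genes 21 of 22 and of E2F, MYB and FOXM1 regulators 7 of 7 were higher in every library, with median log2 ratios of 2.29, 1.47 and 1.44 against -0.06 for 8730 genes, of which 1792 were higher and 2657 lower in every library. Knl1, the kinetochore scaffold, was higher by at least 3.34 in each library and Uhrf1, which copies DNA methylation, by 1.85 to 2.56 on the log2 scale. Among G1 genes Ccne2 was higher by 0.98 to 2.29, but Ccnd3 and Ccnd2 were lower in every library, by -0.77 to -0.62 and -0.66 to -0.20. Of 6 quiescence genes 4 were lower and none higher in every library: Btg1, Btg2, Foxp1 and Tsc1. In germinal centre B cells, over 2 libraries, all 4 light zone genes (Cd83, Cd86, Cd40 and Cd52) were lower in the cells with G2/M genes, with a median of -0.95, where 2314 of 8177 genes were lower in both, and Polh of the dark zone was higher by 1.14 and 1.43. Cxcr4 was higher in 1 of these libraries and lower in the other. Foxo1, the remaining dark zone gene, was neither higher in both nor lower in both. Of the 8177 genes 2874 were higher in both.

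T cell subsets were set apart by receptor genes: CD8ab T cells by Cd8b1, CD8aa T cells by Cd8a without Cd8b1, CD4 T cells by Cd4, and T cells with a Trdc UMI. Trdc encodes the delta chain constant region, but Trbc2 of the beta chain was found in 85.5% of this last gate and 88.9% of the CD8aa gate, so it is named here by Trdc and not as a lineage. CD8aa and Trdc cells make up much of the intraepithelial lymphocytes of the small bowel, and CD8ab cells include recruited conventional T cells.

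CD8ab T cells had the widest range of the G2/M sum among the T cell subsets. Their G2/M sum was 357 CPM in saline 1 (77 cells), 83.7 CPM in saline 2 (21 cells), 1100 CPM in the shared wells (841 cells) and 790.2 CPM in PFF 1 (174 cells). CD8aa T cells had 225, 180, 234 and 261 CPM and Trdc cells 238, 355, 222 and 351 CPM. The CD8ab sum was thus above those of CD8aa and Trdc cells in saline 1, the shared wells and PFF 1, and below both in saline 2. CD4 T cells had 924 CPM (6 cells), 96.0 CPM (8 cells), 237 CPM (90 cells) and 240 CPM (61 cells) in the same order. Their S sum ranged further than that of CD8ab cells, from 252 to 1294 CPM against 311 to 555 CPM. In PFF 1, 749 of the 1231 G2/M UMIs of CD8ab cells lay in 2 cells, and in saline 1, 72 of 87. In the third shared well 339 of 740 CD8ab cells had a G2/M UMI. The thinned share of CD8ab cells with 2 G2/M genes was 3.28% (2 of 61), 0% (0 of 21, which by a limit of 3 cells allows up to 14.3%), 9.65% (80 of 829) and 2.91% (5 of 172), against 1.29% to 1.78% of CD8aa cells.

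**Figure D4:**
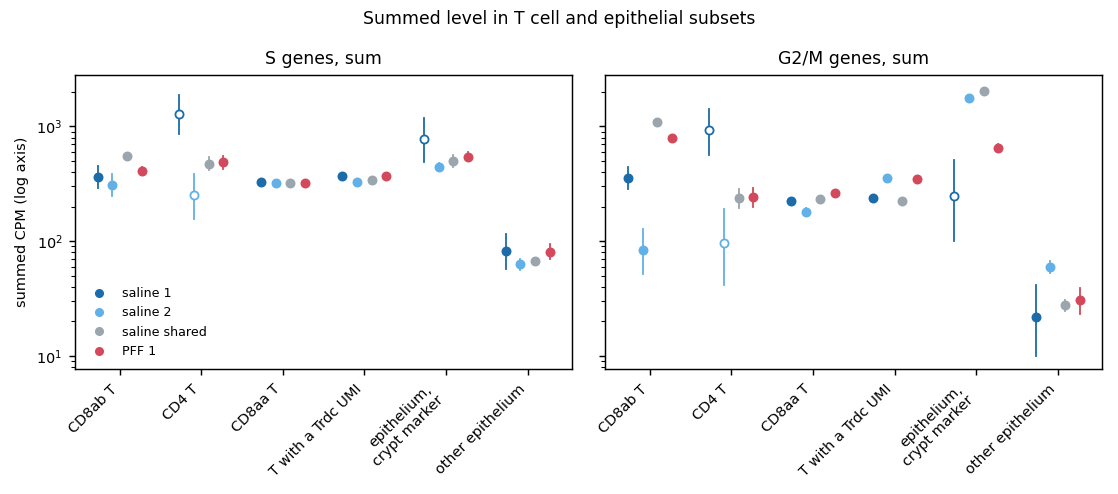
Summed CPM of S and G2/M genes in T cell subsets and in crypt-marker and other epithelium, per library, on a log axis with Poisson 95% intervals and open circles where a gate had fewer than 10 cells. CD8ab T cells span 83.7 to 1100 CPM of G2/M genes while CD8aa T cells span 180 to 261 CPM, and crypt-marker epithelium lies above other epithelium in every library.

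In edgeR's test with the library as a block, 27 of 33 members were lower in CD8aa than in CD8ab T cells and none higher, where 12.1% of 13075 genes were called lower. All 21 G2/M genes were lower, with a median of -2.02, as were Stmn1 and 5 of 11 S genes, the S genes with a median of -0.45, against 0.02 for all genes. Ccnb1, Ube2c and Ccna2 led with -2.93 ± 0.49, -2.81 ± 0.50 and -2.49 ± 0.35 (SE), and Pclaf, Rrm2 and Tyms led the S genes with -2.06 ± 0.31, -1.68 ± 0.34 and -1.16 ± 0.24, all with an adjusted p of at most 0.00235 by Benjamini-Hochberg. Saline 2, with 21 CD8ab cells, went the other way: Pclaf stood at 16.4, 0, 113 and 56.5 CPM in CD8ab cells and at 12.8, 10.5, 20.7 and 19.0 CPM in CD8aa cells. Only 4 of 21 G2/M genes were lower in all 4 libraries, where 7.63% of genes were. Without the shared wells 20 members were called, and DESeq2 called 18.

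Trdc cells were lower than CD8ab T cells in 26 of 33 members, where 10.1% of genes were called lower: all 21 G2/M genes with a median of -1.65, 4 S genes and Stmn1. Pclaf fell by 1.65 ± 0.30, Ube2c by 2.35 ± 0.48, Aurkb by 2.04 ± 0.39 and Ccnb1 by 2.04 ± 0.44 on the log2 scale (SE), with adjusted p of 0.00119, 0.00317, 0.00162 and 0.00438 by edgeR with Benjamini-Hochberg adjustment. None of the 21 G2/M genes was lower in every library, where 5.54% of genes were. This count fell to 8 without the shared wells, to 5 with DESeq2, to 13 without the deepest 5% of cells and to 12 with Epcam and Cdh1 left out of the epithelial limit. Between CD4 and CD8ab T cells only Bub1b, a spindle checkpoint kinase, was called of 33 members, lower in CD4 cells with 1 UMI against 126 in CD8ab cells, where 1.93% of genes were called lower. The ratio was 0.0617 (0.00155 to 0.350), and the call was lost without the deepest 5% of cells. Of the 21 G2/M genes 20 were lower in CD4 cells in both libraries, where 30.3% of genes were, with a median of -2.85, but without saline 2, which held no CD4 gate of 10 cells, 9 members were called and without any library block none. CD4 T cells rested on 2 libraries, the shared wells with 90 cells and PFF 1 with 61. The split of all called genes was 264 higher and 252 lower there, and 319 and 199 under RLE scaling.

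Lists of division genes were mostly lower or uncalled in CD8aa against CD8ab cells: 29 of 35 other mitosis genes, 8 of 25 replication genes and 4 of 9 regulators were lower and none higher, with Cdc20, which activates the anaphase complex, at -2.85 ± 0.45. Of the quiescence list 4 of 8 were lower, of the G1 genes 2 higher and 2 lower, and of the inhibitors 2 higher and 1 lower. Klf2, which keeps naive and recirculating T cells in their traffic, was also lower in CD8aa cells, by 6.44 ± 0.53, and Cdk6 was higher by 1.05 ± 0.19 (adjusted p = 8.329e-07 and 0.000975 by edgeR with Benjamini-Hochberg adjustment).

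Epithelial cells showed division genes where crypt markers were present. Crypt-marker epithelium, cells with Olfm4, Lgr5, Ascl2, Smoc2 or Gkn3, summed to 1777 CPM of G2/M genes in saline 2 (30 cells), 2044 CPM in the shared wells (24 cells) and 655 CPM in PFF 1 (20 cells). Saline 1 had 2 such cells and entered no test. In saline 2, 977 of the 2362 G2/M UMIs lay in 2 cells, and in PFF 1, 253 of 578. In the first and second shared wells 2 cells of each well held 185 of 196 and 473 of 876. Other epithelium had 21.8, 59.5, 27.6 and 30.3 CPM in saline 1, saline 2, the shared wells and PFF 1, and the ranges did not overlap. Top2a stood at 272, 459 and 104 CPM in the crypt-marker cells of saline 2, the shared wells and PFF 1, Mki67 at 349, 263 and 129 CPM, and Ube2c at 120, 187 and 35.1 CPM. PFF 1 was lowest for these G2/M genes. Among the S genes Pclaf stood at 87.3, 158 and 90.6 CPM, Pcna at 79.0, 85.8 and 108 CPM and Mcm7 at 49.7, 28.6 and 44.2 CPM, with no such order.

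All 33 members were higher in crypt-marker than in other epithelium by edgeR's test with Benjamini-Hochberg adjustment, where 21.7% of 10962 genes were called higher. Mcm3 and Bub1 lay at 0 to 0.48 CPM and 0 to 0.25 CPM in other epithelium. Such members passed the low-count filter only through the crypt-marker cells, so only a higher call was open to them. The median log2 difference was 3.37 for S and 5.09 for G2/M genes against 0.08 for all genes, and no member overlapped between the gates in the 3 libraries, where 32.6% of genes were higher without overlap. Kif11 was higher by 5.99 ± 0.35 and Top2a by 6.47 ± 0.60 (SE), with adjusted p of 7.342e-05 and 0.000271. Mcm3 had 68 UMIs against 2, a ratio of 238 (63.3 to 2002), and Bub1 47 against 3, a ratio of 109.5 (35.2 to 550.0). Pclaf and Mcm5 were higher by 4.46 ± 0.26 and 5.39 ± 0.68. After thinning, 27.6% (8 of 29), 30.4% (7 of 23) and 33.3% (6 of 18) of crypt-marker cells had 2 G2/M genes, against 1.00%, 0.249% and 0.980% of other epithelium. Crypt-marker cells had medians of 19848 to 43391.5 UMIs in these libraries, against 2153 to 13349 UMIs, and the part of depth in the choice of cells with a crypt UMI was not tested.

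Of the other lists 33 of 35 mitosis genes, 21 of 23 replication genes, 6 of 9 regulators and 6 of 8 G1 genes were higher in crypt-marker epithelium. Ccnd1, the cyclin D1 gene, was higher by 3.60 ± 0.29 (SE), and the inhibitor gene Cdkn1a, which encodes p21, was lower by 1.84 ± 0.22 on the log2 scale (adjusted p = 0.000182 and 0.000628 by edgeR with Benjamini-Hochberg adjustment). The antiproliferative genes Btg2, Tob1 and Btg1 were lower by 2.79 ± 0.29, 1.35 ± 0.17 and 1.15 ± 0.16, and no other of the 7 quiescence genes tested was called, where 20.9% of all genes were called lower.

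The epithelium as a whole did not stand uniformly above or below T cells. Of the 32 members tested, 2 were higher, Ccnb2 (1.14 ± 0.47) and Birc5, the survivin gene (0.95 ± 0.34), and 6 lower, Mcm2 to Mcm6 and Rrm1, with Mcm4 lowest at -2.37 ± 0.42 (SE). For all genes 33.7% were called higher and 36.1% lower by edgeR with Benjamini-Hochberg adjustment, so neither count over both phases is above the background. By phase, 6 of 11 S genes were lower and none higher, and 2 of 20 G2/M genes were higher and none lower. Mcm4 stood at 4.53, 7.90, 1.20 and 9.12 CPM in epithelium and at 39.4, 40.1, 36.2 and 36.3 CPM in T cells, without overlap. Ccnb2 stood at 0, 26.0, 4.31 and 17.2 CPM in epithelium and at 6.40, 7.71, 10.5 and 7.33 CPM in T cells, above T cells in saline 2 and PFF 1 alone. The median log2 difference was -1.17 for S and -0.03 for G2/M genes against -0.15 for all genes. The higher calls depend on the setting: without the deepest 5% of cells 10 members were higher and 6 lower, at a limit of 10% mitochondrial UMIs 7 and 6, with DESeq2 0 and 5, and without saline 2 0 and 10.

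Dendritic cells, which capture antigen and enter the tissue as dividing precursors, held few UMIs of the members. Their G2/M sum was 58.7 CPM in saline 1 (9 cells, 4 UMIs), 70.9 CPM in saline 2 (23 cells), 204.5 CPM in the shared wells (27 cells) and 92.2 CPM in PFF 1 (28 cells), and single cells held much of it: 1 cell held 13 of 29 UMIs in saline 2 and 15 of 45 in PFF 1, and 2 cells of the first shared well held 37 of the 48 UMIs of the shared wells. Their S sum was 147, 169, 192 and 113 CPM. Mki67 stood at 14.7, 19.5, 25.6 and 12.3 CPM and Top2a at 0, 14.7, 21.3 and 14.3 CPM, below every T cell value. Tpx2, a spindle assembly factor, stood at 14.7, 4.89, 12.8 and 10.2 CPM. Pcna, Mcm3 and Mcm4 led the S genes, Pcna with 44.0, 46.4, 59.7 and 32.8 CPM. Hmmr and Bub1 had no UMI in any dendritic cell.

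Against T cells 6 of 32 members were lower in dendritic cells and none higher, where 19.8% of genes were called lower, so the count of members lies near the background. Mcm6 was lower by 1.39 ± 0.40, Rrm1 by 1.60 ± 0.55 and Top2a by 1.94 ± 0.50 on the log2 scale (SE), with adjusted p of 0.00775, 0.0237 and 0.00353 by edgeR with Benjamini-Hochberg adjustment. Mcm7 had 3 UMIs, a ratio to T cells of 0.0904 (0.0186 to 0.264), and Cenpf 1 UMI, a ratio of 0.0456 (0.00116 to 0.255). Hmmr, with 0 UMIs, was at least 3.40-fold lower. The median log2 difference was -1.29 for S genes and -1.81 for G2/M genes (-1.38 with genes at their bound), against -0.27 for all genes. Of all called genes 1860 were higher and 2093 lower in edgeR's test, and 2531 and 1628 with DESeq2, which differs in scaling and in test. Without the deepest 5% of cells 2 members were higher and 1 lower.

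Dendritic cells and macrophages, the C1q-bearing phagocytes of the tissue, were not separated by the members. None of 32 was called by edgeR, where 11.7% of genes were called in either direction, and 1 member, Pcna, had an unadjusted p under 0.05, where 24.1% of genes did. Pcna stood at 229, 117, 67.1 and 79.2 CPM in macrophages, above the 32.8 to 59.7 CPM of dendritic cells, with a log2 difference of -1.05 ± 0.38 (SE) and an adjusted p of 0.0784. DESeq2 called 1 member lower in dendritic cells, and without the shared wells edgeR called 2. The cell numbers limit this comparison to 23, 27 and 28 dendritic cells of 3 libraries. Only PFF 1 had 10 or more dendritic cells with Xcr1 or Clec9a, marks of cDC1 cells, so these were not tested against the others. In PFF 1 their G2/M sum was 24.0 CPM against 128 CPM in the other dendritic cells.

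PFF and saline were compared in gates with 10 or more cells in every library, without the shared wells. The labels do not say whether libraries came from separate groups of mice, so the p-values measure the spread between these libraries, and with 1 PFF library that spread comes from the 2 saline libraries with 1 residual degree of freedom, and the lone PFF library is assumed to vary like them. In T cells none of the 33 members was called by edgeR with Benjamini-Hochberg adjustment, where 0.0142% of 14114 genes were called, and 4 members had an unadjusted p under 0.05, where 4.11% of genes did. These were Pclaf (0.73 ± 0.21), Rrm2 (0.64 ± 0.23), Tyms (0.62 ± 0.22) and Mki67 (0.59 ± 0.19 SE), each with an adjusted p of 0.9997. DESeq2 called none.

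In T cells Pclaf stood at 16.2 CPM in saline 1, 15.3 CPM in saline 2 and 26.0 CPM in PFF 1, and Mki67 at 35.7, 43.4 and 59.7 CPM. PFF 1 was above both saline libraries for these genes. The shared saline wells, however, stood at 36.9 CPM for Pclaf and 65.5 CPM for Mki67, above PFF 1. Of the G2/M genes 14 of 21 lay above both saline libraries and 7 between them, with a median log2 difference of 0.34 against -0.02 for all genes, and of the S genes 6 lay above, 4 below and 1 between. Of all genes 29.5% lay above both saline libraries and 30.6% below both. The summed G2/M level of PFF 1 was above that of saline 1 of the same batch by 0.50 on the log2 scale and above saline 2 by 0.16, while saline 2 was above saline 1 by 0.35. Within a batch there was 1 library of each kind and no test. The thinned share of T cells with 2 G2/M genes was 0.75 percentage points higher in PFF 1 than the mean of the saline libraries, and that of the shared wells was higher than PFF 1.

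The genes called in T cells were Mcpt1 and Mcpt2, proteases of mucosal mast cells, higher in the lone PFF library by 6.83 and 6.39 on the log2 scale. All 3 mast cell markers had UMIs in the T gate of every library, and they summed to 78.2 CPM in PFF 1 against 6.89 to 8.22 CPM in the saline entries. Natural killer and innate lymphoid markers summed to 69.4 to 88.2 CPM, all 3 present, and epithelial markers, 5 or 6 of 6 present, to 180 to 204 CPM. The part of these RNAs in the values of the members was not tested.

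In epithelium none of the 32 members tested was called, where 0.113% of 11503 genes were, and none had an unadjusted p under 0.05, where 2.02% of genes did. DESeq2 called none either. All 11 S genes lay above both saline libraries in PFF 1, as did 30.3% of all genes, with a median log2 difference of 0.83, among them Tyms with 0 and 14.1 CPM in saline 1 and saline 2 and 20.6 CPM in PFF 1. Of the G2/M genes 1 lay above and 20 lay between the saline libraries, whose own values were far apart: the G2/M sum was 36.2 CPM in saline 1, 443 CPM in saline 2 and 217 CPM in PFF 1. Crypt-marker cells were 2 of 27, 30 of 333 and 20 of 214 epithelial cells in these libraries. The S sum of other epithelium was 82.24, 62.75 and 80.88 CPM in saline 1, saline 2 and PFF 1. In crypt-marker cells it was 784.6, 444.7 and 543.7 CPM, so PFF 1 lay between the saline libraries in each subset. The part of the crypt-marker cells in the values of the whole epithelium was not tested.

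Germinal centre B cells and dendritic cells were given as values, since saline 2 had 9 and saline 1 had 9 cells. In germinal centre B cells the G2/M sum of PFF 1 was below both saline libraries, with a log2 ratio of -1.13 to their mean, and 12 of 21 G2/M genes lay below both and 9 between. Of all genes 19.1% lay below both and 34.4% above both. In saline 1, 373 of the 718 G2/M UMIs lay in 2 of the 13 cells, in saline 2, 476 of 485 in 2 of the 9 cells, and in PFF 1, 794 of 2973 in 2 of the 77 cells. Against saline 2 alone the ratio was -0.36, and saline 2 itself was 1.26 log2 units below saline 1. Of the S genes 5 lay below, 5 between and 1 above. In dendritic cells the log2 ratio of the G2/M sum was 0.51, and it was -0.27 when the shared wells were added to the saline side, -0.46 with 1 more marker required and -0.96 with Epcam and Cdh1 left out of the epithelial limit. Its direction thus changed with the setting.

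**Figure D5:**
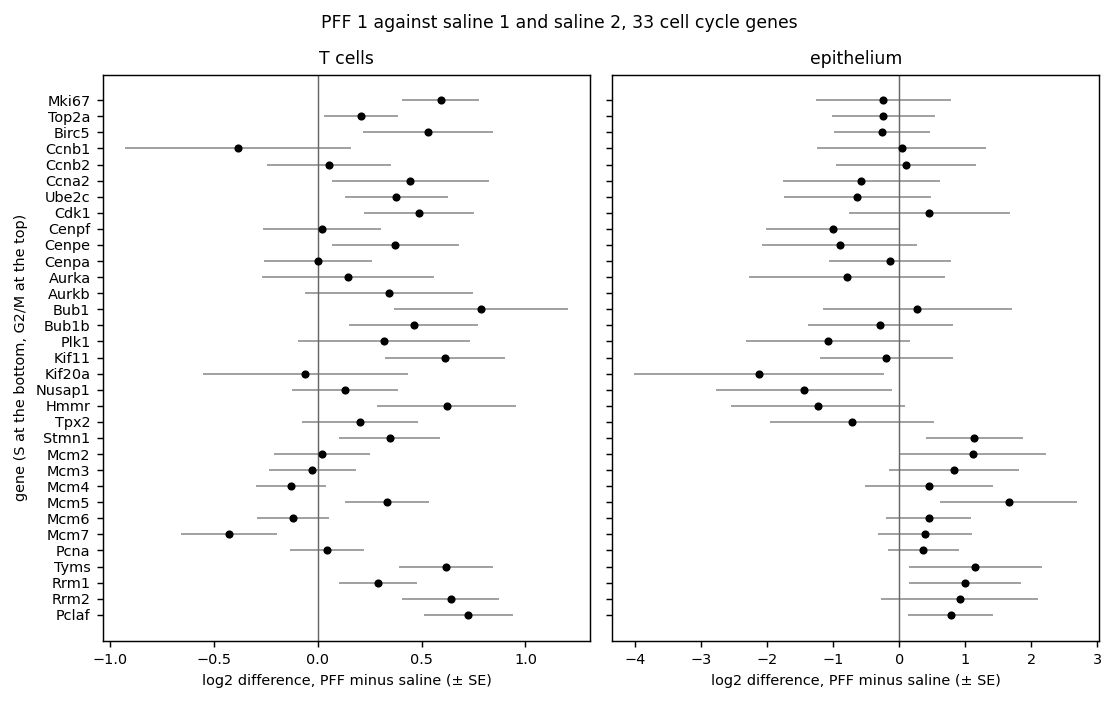
Log2 difference of each member between PFF 1 and the saline libraries (points) with its standard error (lines), in T cells (left) and epithelium (right), from edgeR, G2/M genes at the top and S genes at the bottom; Aurkb was not tested in epithelium. No member passed the adjusted threshold of 0.05. The horizontal axes differ: standard errors in epithelium ran from 0.54 to 1.89.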

How the data were processed

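The deposited files are filtered 10x matrices of raw UMI counts per gene and cell, made by the authors with Cell Ranger 7.0.0 per the file headers, on mm10 per the submitters' processing notes. The members and all gene lists were chosen with earlier results of these data known. The cell filter asked for 500 UMIs and 200 genes or more, with mitochondrial UMIs of no more than 15%. Cells were gated by the number of marker genes with a UMI, without a member among the markers, and no doublet caller was run. The 3 wells held in both saline files were counted once. Counts were summed per gate and library, and those with 10 or more cells entered edgeR 4.0.16 (R 4.3.3; TMM, filterByExpr, quasi-likelihood test, library as a block, Benjamini-Hochberg adjusted p under 0.05), with DESeq2 1.42.0 as an alternative. PFF was compared with saline 1 and saline 2 without a block. No column of values was left unused. The fit was tested on simulated data. Named were, in each gate, the 3 S and 3 G2/M genes with the highest mean CPM, Mki67, Top2a and Stmn1, and in each comparison the 3 called members of each phase with the largest change and any member called the other way. Genes of dividing cells and a few values beside these were chosen after their values were seen. Other alternatives changed scaling, low-count filter, thinning depth, mitochondrial limit, marker numbers, the deepest 5% of cells, the shared wells and single libraries. The epithelial limit without Epcam and Cdh1 was added after seeing the data.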

Additional observations from a re-analysis of the deposited data

How the results depend on the processing

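The counts of called members are given here where an alternative moved them past 1.5 times or turned their direction, and the causes were not tested. DESeq2 called 1 member between dendritic cells and macrophages, 5 between epithelium and T cells, 2 between CD4 and CD8ab T cells and 5 between Trdc and CD8ab T cells. Without the shared saline wells 2 members were called between dendritic cells and macrophages and 8 between Trdc and CD8ab cells. With 1 more marker required the counts were 1 for dendritic cells against macrophages and 11 for dendritic cells against T cells. Without a low-count filter 14 were called for dendritic against T cells and 17 for CD4 against CD8ab cells, and without a library block 0 for the latter. At most 10% mitochondrial UMIs gave 13 for epithelium against T cells, more of them higher than lower, and 4 for CD4 against CD8ab cells. Leaving out the deepest 5% of cells gave 3 for dendritic cells and 16 for epithelium against T cells, both with more higher than lower, 0 for CD4 and 13 for Trdc against CD8ab cells. The epithelial limit without Epcam and Cdh1, chosen after seeing the data, gave 10 for dendritic against T cells, and 0 for CD4 and 12 for Trdc against CD8ab cells.

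For PFF against saline in dendritic cells, the log2 ratio of the G2/M sum was -0.46 with 1 more marker, -0.96 under the added epithelial limit and -0.27 with the shared wells added. The difference in the share of T cells with 2 G2/M genes, 0.75 percentage points, was 2.94 without thinning, 0.65 at 1000 UMIs, 0.68 for at least 3 genes, 0.85 at the stricter mitochondrial limit, 0.57 without the deepest 5% of cells and 0.54 under the added limit. The median confinement of G2/M genes in T cells was 73.0% after thinning and 57.2% without the deepest 5%. Leaving out 1 library at a time gave 0 to 9 members for CD4 against CD8ab cells, 9 without saline 2. Of the alternatives for single genes 467 kept their direction and call, 54 lost the call and 0 turned. The median of all genes moved from -0.23 to 0.54 for germinal centre B cells, from -0.27 to 0.78 for dendritic cells and from -0.15 to 0.79 for epithelium, each against T cells, with DESeq2 in place of edgeR.

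No paired analysis was possible because PFF and saline share only replicate number 1. Dendritic cells with Xcr1 or Clec9a against the others, a requirement of at least 2 crypt markers, PFF tests in dendritic and germinal centre B cells with the chosen gates, and PFF fits without 1 saline library could not be fitted, for lack of cells or residual degrees of freedom. Under the added epithelial limit the PFF tests in dendritic and germinal centre B cells had enough cells, and edgeR called 0 of 13 and 0 of 33 members. With 1 PFF library, few germinal centre B and dendritic cells and 1328.5 to 43391.5 UMIs per cell in the median of a gate, small changes between PFF and saline were not detectable.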

Other observations

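The 12750 cells in no gate had a G2/M sum of 219 to 548 CPM over the 4 library entries, against 235 to 378 CPM in T cells. Their S sum was 280 to 464 CPM, against 325 to 373 CPM. Both sums were above T cells in saline 1 and the shared wells and below them in saline 2 and PFF 1. The ungated cells include those with 2 T cell markers and 2 epithelial markers: 594 in saline 1, 1791 in saline 2, 2126 in the shared wells and 4478 in PFF 1.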
